A study of Arabidopsis thaliana with 36 samples.

Results

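The comparison set rosette shoots of the Arabidopsis thaliana natural ecotype Kas-1 (Kas) after 48 h without iron against Kas shoots after 24 h without iron. The 6 arrays, 3 per time, were chosen by their sample titles out of 36 arrays in the series. All plants were 24 d old when moved, and grew on rockwool with a hydroponic solution under a 16 h photoperiod at 150 µmol m-2 s-1. The iron-free plants received no added iron, while plants on complete medium received 50 µM iron as Fe(III)-EDDHA, an iron chelate. Beside the comparison stand Kas shoots on complete medium for 24 h, the shoots of a second ecotype, Tsu-1 (Tsu), in the same media and times, and Kas roots at both times without iron. Each of these groups also held 3 arrays. No complete-medium plants were sampled at 48 h, so a longer lack of iron and an extra day of age cannot be told apart. Whether a group's arrays stem from separate cultures is not stated, so the p-values rest on a spread that may be technical.

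Iron is a cofactor of the photosystems, of ferredoxins and other Fe-S proteins, and of heme enzymes, so leaves hold much of a plant's iron. When iron runs short, basic helix-loop-helix (bHLH) factors of the group that includes ILR3, bHLH104, bHLH115 and bHLH34, with bHLH121, switch on a second tier that includes PYE, a repressor of iron-use genes, and BHLH101, an activator of iron uptake genes. The comparison asks which genes of the rosette differed between the first and the second day without iron.

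The deposited values were log2 expression values, 1 per probe set, and a difference of 1 is a 2-fold difference in signal. The 6 arrays had medians from 4.91 to 4.96. Correlations between arrays ran from 0.9935 to 0.9961 within 48 h, from 0.9946 to 0.9958 within 24 h, and from 0.9916 to 0.9944 between the times. No 2 arrays held identical values. For the shoot label, the mean of 8 photosystems and light-harvesting probe sets lay between 11.16 and 11.45 in every one of the 6 arrays. That of 4 root markers lay between 3.68 and 4.16. Levels of different probe sets are not directly comparable, and no root array was set beside them, so these means do not test the label. The anther gene AMS read 1.97 to 2.33. The ecotype label was set on a scale from 122 probe sets at least 8-fold apart between the ecotypes on complete medium (3 on the log2 scale), on which Tsu shoots on complete medium averaged 0 and Kas shoots 1. Kas shoots scored 1.04 ± 0.04 at 48 h and 0.972 ± 0.022 at 24 h (SD, n = 3 each). Tsu shoots scored 0.0891 ± 0.0158 at 48 h and 0.591 ± 0.049 at 24 h, so the Tsu arrays at 24 h stood between the ecotypes, and each Tsu change below rests on them. The 3′ minus 5′ difference, a sign of RNA quality, was 3.13 ± 0.22 at 48 h and 3.39 ± 0.03 at 24 h for actin, 0.366 ± 0.029 at 48 h and 0.276 ± 0.045 at 24 h for GAPDH, and 2.17 ± 0.04 at 48 h and 2.11 ± 0.11 at 24 h for ubiquitin.

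Between the times 86 of 22746 probe sets were called at a Benjamini-Hochberg adjusted p below 0.05 in limma, which is 0.378% of those tested. Of these, 69 were higher at 48 h (0.303% of probe sets) and 17 were lower (0.0747%). At an unadjusted p below 0.05 there were 2281 probe sets. All 25 calls of at least 2-fold were higher at 48 h. The median change over all probe sets was -0.0026, and 49.3% of them had a positive change. The calls named 1 gene in 33 cases, 26 of them higher and 7 lower, while 2 named several genes and 51 are unnamed here. In all 86 the 3 arrays at 48 h lay on one side of the 3 at 24 h, against 19.7% of all probe sets. The calls were made on these same arrays, so the lack of overlap adds no separate support. In whole rosettes, a change in the share of a cell type and a change in RNA per cell cannot be told apart. The largest rise was OSM34, an osmotin-like defence protein, and no called fall reached 1 on the log2 scale. Leaving out 1 array at a time gave 31 to 102 calls: 45, 31 and 102 without replicates 1, 2 and 3 at 48 h, and 37, 33 and 32 without replicates 1, 2 and 3 at 24 h.

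**Figure D1:**
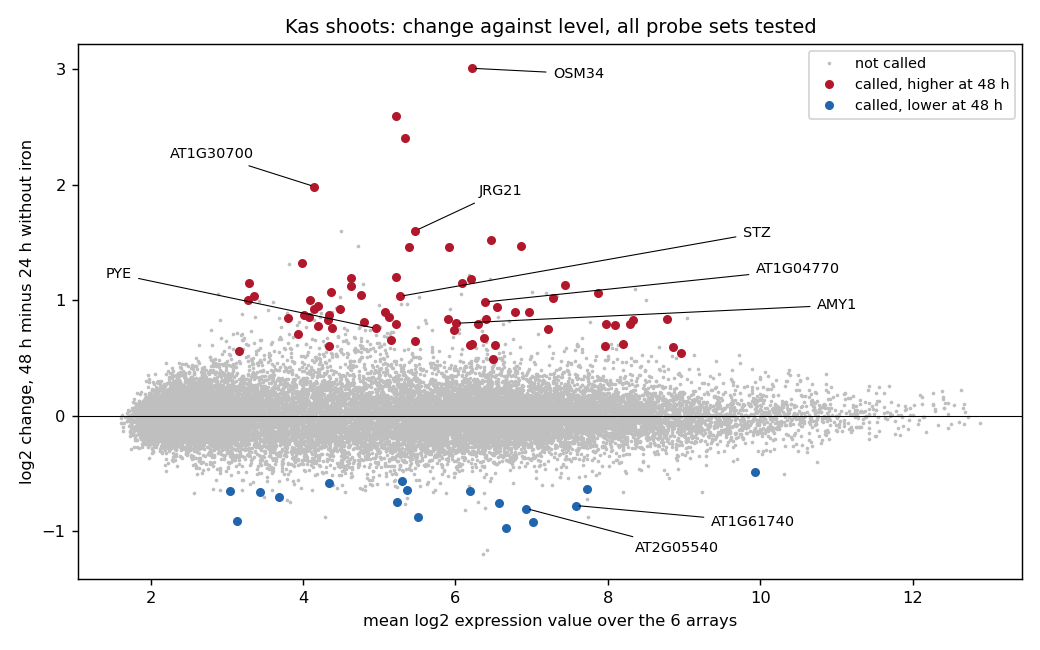
Log2 change from 24 h to 48 h without iron (y axis) against the mean log2 expression value over the 6 Kas shoot arrays (x axis), 1 point per probe set, with the 69 called rises in red, the 17 called falls in blue and the rest in grey. The rises reach 3.01 at OSM34 and the falls stop at -0.97.

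Among the regulators of iron signalling, PYE rose and the upstream bHLH factors did not move past the test. PYE read 5.50, 5.24 and 5.26 at 48 h and 4.52, 4.71 and 4.51 at 24 h, beside 4.03, 4.1 and 4.33 on complete medium. The arrays fell in 3 separate steps, with 48 h at the top. Its log2 change from 24 h to 48 h was 0.76 ± 0.14 (SE, adjusted p = 0.0196), a 1.69-fold rise. The PYE call was lost in limma without replicate 1 or 2 at 48 h or without replicate 1 or 3 at 24 h, and with all 36 arrays in 1 fit, with adjusted p up to 0.118 over all alternatives.

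AT1G47400, entered in the iron signalling list by its locus, read 7.88, 7.69 and 7.57 at 48 h and 6.61, 6.56 and 6.78 at 24 h, against 4.85, 3.25 and 4.32 on complete medium. The groups did not overlap, and the complete-medium arrays were the most scattered. The change of 1.06 ± 0.30 (SE) missed the limma test over the 18 shoot arrays (adjusted p = 0.147). It passed when only the 6 arrays of the comparison were fitted (adjusted p = 0.0065), and missed with all 36 arrays in 1 fit (adjusted p = 0.4975). AT5G05250, a locus of the iron transport and reduction list, also had groups that did not overlap. It read 7.45, 7.63 and 7.53 at 48 h and 6.35, 6.50 and 6.54 at 24 h, against 5.80, 4.35 and 5.0 on complete medium. Its change of 1.07 ± 0.26 (SE) had an adjusted p of 0.0794 in limma over the shoot arrays and 0.0065 over the 6 arrays alone.

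BHLH101 scattered widely, at 4.27, 3.63 and 3.15 at 48 h and 2.24, 3.22 and 3.38 at 24 h. The times overlapped, and the change of 0.73 ± 0.40 (SE) did not pass (limma adjusted p = 0.574). The upstream factors stayed close together: the changes were -0.07 for bHLH104, -0.01 for bHLH115, 0.06 for ILR3, 0.09 for bHLH34 and 0.17 for bHLH121, with standard errors of 0.10 to 0.17. AT1G18910, another locus of the list, read 4.81 to 5.06 at 48 h and 4.52 to 4.71 at 24 h, a change of 0.30 that did not pass (limma adjusted p = 0.496). AT1G74770 has 2 dim probe sets that disagreed, with changes of 0.01 and 0.43. In all, 1 of 11 iron signalling probe sets was called, 9 had a positive change and the median was 0.17. Over all probe sets 0.378% were called, 49.3% had a positive change and the median was -0.0026.

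Of 7 probe sets for iron transport and reduction, 0 were called by limma and 1, AT5G05250, had an unadjusted p below 0.05. Their median change was 0.11. Of all probe sets tested, 0.378% were called and 10% had an unadjusted p below 0.05. ZIP9, of the zinc and iron transporter family, read 2.64 to 3.27 at 48 h and 2.99 to 3.23 at 24 h, among the dim values of the array. AT3G13610 read 5.83, 5.50 and 5.29 at 48 h and 5.69, 5.16 and 5.23 at 24 h, against 3.64, 4.62 and 4.04 on complete medium, so the arrays of the 2 iron-free times overlapped above the complete-medium arrays. The 2 iron storage probe sets changed by 0.05 and 0.07. Many well-known iron genes were not analysed here, because the annotation used names no probe set for them.

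**Figure D2:**
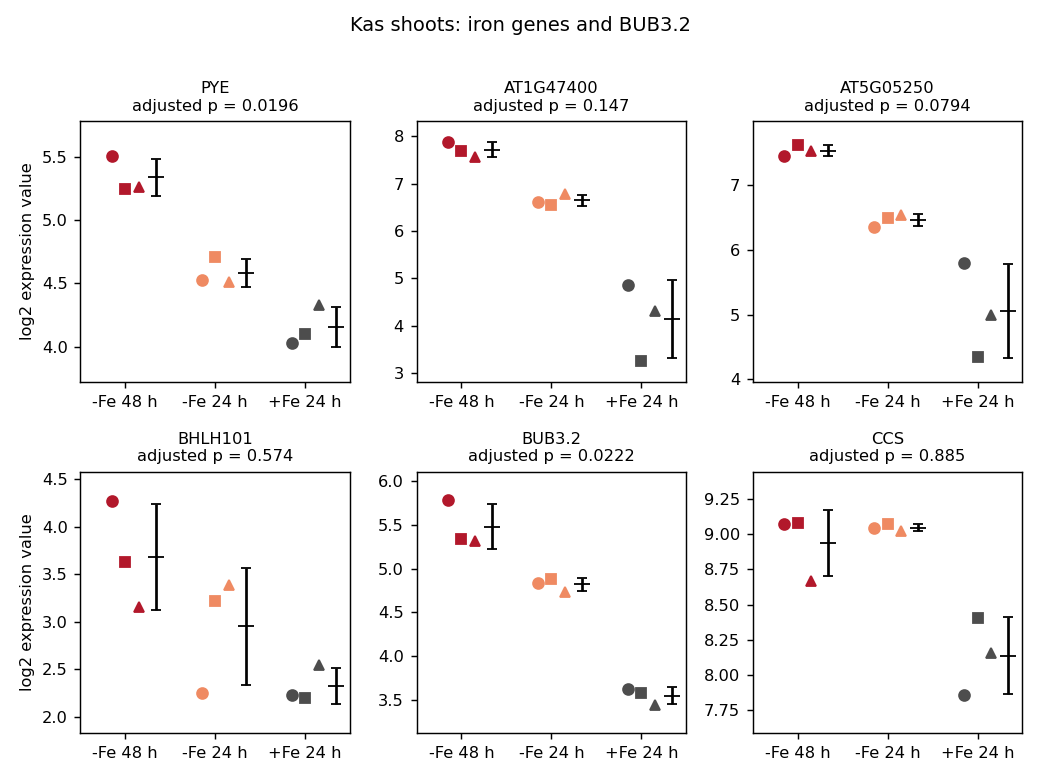
Log2 expression values (y axis) of 6 genes in Kas shoots after 48 h and 24 h without iron and after 24 h on complete medium (x axis), with circles, squares and triangles for replicates 1, 2 and 3 and bars for the mean ± SD (n = 3). PYE, AT1G47400, AT5G05250 and BUB3.2 stand highest at 48 h, lower at 24 h and lowest on complete medium, while BHLH101 overlaps between the times and CCS reads 8.67 to 9.08 at 48 h and 9.02 to 9.07 at 24 h.

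The measured members of the lists of photosystems, chlorophyll and heme synthesis, Fe-S clusters, electron transport and heme enzymes held no called change from the first to the second day. Of all probe sets tested, 0.378% were called and 10% had an unadjusted p below 0.05. At that share of calls, lists this short would mostly hold no call, so its absence does not set them apart. These lists cover a few of the genes whose products use iron. All 8 photosystems and light-harvesting probe sets missed the limma test, 1 had an unadjusted p below 0.05, and their 95% intervals together spanned -0.26 to 0.83. That 1 was LHCB4.3, an antenna protein of photosystem II, which read 8.77, 8.96 and 8.75 at 48 h and 8.04, 8.38 and 8.52 at 24 h (change 0.51, adjusted p = 0.162). Its relatives LHCB4.1 and LHCB4.2 changed by 0.07 and 0.13. For chlorophyll and heme synthesis 0 of 8 probe sets were called, and 0 had an unadjusted p below 0.05. PORB, which reduces protochlorophyllide, read 10.65 to 11.03 at 48 h and 10.83 to 11.10 at 24 h, and CHLM, a methyltransferase of the same pathway, 10.36 to 10.44 at 48 h and 10.35 to 10.39 at 24 h.

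The 6 probe sets for Fe-S cluster assembly and sulfate assimilation included 0 calls and 0 with an unadjusted p below 0.05, with a median of 0.06. The scaffold ISU1 changed by -0.04, the sulfite reductase SIR by 0.01 and HCF101, an Fe-S carrier of the chloroplast, by 0.20. The 4 probe sets for electron transport and ferredoxins gave 0 calls and 0 unadjusted p below 0.05. Of the 4 for heme and peroxide scavenging enzymes, 0 were called and 1 had an unadjusted p below 0.05: the stromal ascorbate peroxidase SAPX, with 8.09, 8.41 and 8.41 at 48 h and 8.68, 8.66 and 8.42 at 24 h (change -0.28, limma adjusted p = 0.455).

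CCS, the copper chaperone of superoxide dismutase, read 9.07, 9.08 and 8.67 at 48 h and 9.05, 9.07 and 9.02 at 24 h, against 7.86, 8.40 and 8.16 on complete medium. Both iron-free times lay above the complete-medium arrays and overlapped each other (change -0.11, limma adjusted p = 0.885). ARPN, a blue copper protein, changed by -0.10.

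Of the jasmonate and defence list, OSM34 and JRG21 were called, and OSM34 had the largest rise of all calls. OSM34 read 8.93, 8.06 and 6.17 at 48 h and 4.57, 4.95 and 4.62 at 24 h, against 5.75, 7.60 and 7.03 on complete medium. The 48 h arrays lay above all 24 h arrays but spread widely, and the complete-medium arrays overlapped them and lay above all 24 h arrays. The change was 3.01 ± 0.46 (SE, limma adjusted p = 0.00375), an 8.04-fold rise, which 1 array could shift: the change was 2.40 without replicate 1 at 48 h and 3.78 without replicate 3. JRG21, named for its regulation by the wound and defence hormone jasmonate, read 6.80, 6.31 and 5.72 at 48 h and 4.58, 4.54 and 4.91 at 24 h, with 5.58, 6.75 and 5.79 on complete medium. It rose by 1.60 ± 0.25 (SE, limma adjusted p = 0.00375), or 3.04-fold, and its highest and lowest 48 h arrays were those of OSM34.

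PDF1.2, an antifungal defensin that serves as a jasmonate and ethylene marker, read 9.27, 8.97 and 8.77 at 48 h and 7.69, 8.06 and 8.25 at 24 h. The times did not overlap, but the change of 1.0 ± 0.24 (SE) missed the test (limma adjusted p = 0.0764). The related PDF1.2b overlapped between the times, with 6.27 to 7.44 at 48 h and 5.90 to 6.51 at 24 h, and its probe set can share signal with other defensin copies. THI2.1, a thionin, read 2.73 to 3.21 at 48 h and 2.14 to 2.45 at 24 h (change 0.62, limma adjusted p = 0.435). Of 7 jasmonate and defence probe sets 2 were called, 7 had a positive change, and the median was 0.86. Over all probe sets 0.378% were called and 49.3% had a positive change.

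STZ, a zinc finger factor induced by salt, cold and other acute stress, read 5.79, 5.86 and 5.72 at 48 h and 4.98, 4.44 and 4.84 at 24 h, against 5.27, 5.48 and 5.14 on complete medium. Here the 48 h arrays stood close together and the complete-medium arrays filled the gap between the times. STZ rose 2.05-fold (log2 change 1.03 ± 0.14 (SE), limma adjusted p = 0.0018). It lost its call only when all 36 arrays entered 1 fit (adjusted p = 0.329). CML38, a calmodulin-like protein induced by wounding and touch, read 4.40, 3.44 and 3.49 at 48 h and 3.24, 2.78 and 3.34 at 24 h, a change of 0.66 that did not pass (limma adjusted p = 0.268). WRKY53, a factor of defence and leaf senescence, changed by 0.23.

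**Figure D3:**
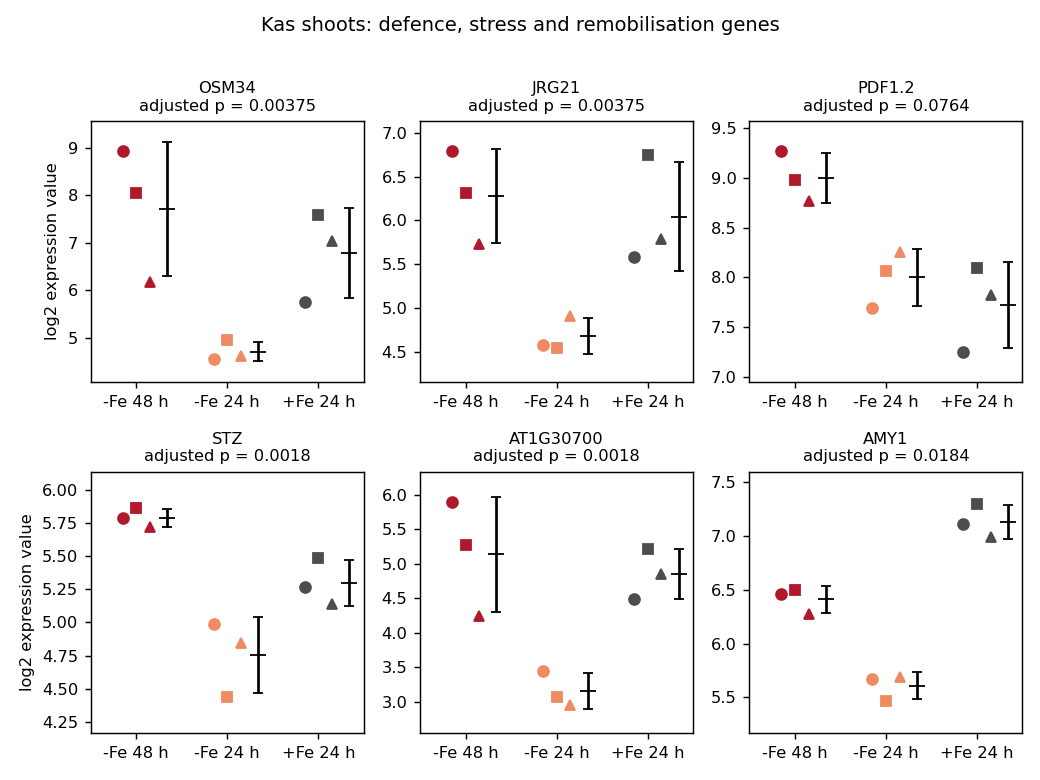
Log2 expression values (y axis) of 6 genes in Kas shoots after 48 h and 24 h without iron and after 24 h on complete medium (x axis), with circles, squares and triangles for replicates 1, 2 and 3 and bars for the mean ± SD (n = 3). In OSM34, JRG21, STZ and AT1G30700 the complete-medium arrays lie above the 24 h arrays, AMY1 is highest on complete medium, and replicate 1 is the highest 48 h array in OSM34, JRG21, PDF1.2 and AT1G30700.

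Among genes of senescence and of carbon and nitrogen remobilisation, AMY1, a secreted alpha-amylase, read 6.46, 6.49 and 6.27 at 48 h and 5.67, 5.46 and 5.69 at 24 h, against 7.11, 7.29 and 6.98 on complete medium. All 3 groups stood apart, with complete medium highest. From 24 h to 48 h AMY1 rose 1.74-fold (log2 change 0.80 ± 0.15 (SE), limma adjusted p = 0.0184), and the call held in 1 of 6 fits that left out 1 array, with adjusted p up to 0.105. SAG29, a sugar exporter of senescing leaves, read 6.73, 5.94 and 5.44 at 48 h and 4.62, 4.97 and 5.43 at 24 h, with replicate 3 nearly level between the times (change 1.03, limma adjusted p = 0.128). SAG101 changed by -0.12 and PPDK by 0.21. Of 7 senescence probe sets 1 was called, beside 0.378% of all probe sets, and the median was 0.21.

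BUB3.2, whose name comes from the spindle checkpoint protein of yeast, read 5.78, 5.34 and 5.32 at 48 h and 4.84, 4.89 and 4.74 at 24 h, against 3.62, 3.58 and 3.44 on complete medium. The 3 groups formed steps with no overlap, in the same order as for PYE. It rose 1.58-fold (log2 change 0.66 ± 0.13 (SE), limma adjusted p = 0.0222). The call was lost without replicate 1 at 48 h, without any one of the 24 h replicates, with only the 6 arrays fitted and with all 36, with adjusted p up to 0.137. The other 3 probe sets of the cell division list, AUR1, HTR12 and BUB3.1, changed by -0.03, 0.10 and 0.18 and were not called.

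Apart from CHX16, the remaining named rises carry locus codes in the annotation used, with no name or function. AT1G30700 read 5.90, 5.28 and 4.24 at 48 h and 3.45, 3.07 and 2.95 at 24 h, against 4.50, 5.21 and 4.85 on complete medium, and rose 3.95-fold (log2 change 1.98 ± 0.27 (SE), limma adjusted p = 0.0018). That SE is pooled over the shoot arrays, while the SD was 0.84 at 48 h and 0.26 at 24 h. With only the 6 arrays fitted, the limma adjusted p was 0.0298. AT1G05340 read 7.88, 7.21 and 6.59 at 48 h and 5.79, 5.50 and 5.82 at 24 h, a 2.88-fold rise. AT1G74010 read 6.99, 6.03 and 5.35 at 48 h and 4.64, 4.97 and 4.37 at 24 h, a 2.75-fold rise. In these 3 genes, as in OSM34 and JRG21, replicate 1 was the highest 48 h array and replicate 3 the lowest. AT2G31945 shared that pattern, with 5.76, 5.08 and 4.74 at 48 h and 4.01, 4.12 and 4.09 at 24 h, and rose 2.17-fold. The unnamed probe sets 251428_at and 258957_at shared it too. The first read 7.47, 6.74 and 5.33 at 48 h and 4.50, 3.71 and 3.54 at 24 h, and the second 7.59, 6.67 and 5.36 at 48 h and 4.14, 4.33 and 3.92 at 24 h. Their changes were 2.59 and 2.41, and 3.18 and 3.0 without replicate 3 at 48 h.

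Across the 69 rises, replicate 1 was the highest 48 h array in 36 (52.2%) and the lowest in 26 (37.7%). Over all probe sets it was the highest in 29.9% and the lowest in 35.7%. The median SD of the rises was 0.193 at 48 h and 0.157 at 24 h, against 0.120 at 48 h and 0.118 at 24 h over all probe sets. The part of that array's sample in these rises was not tested beyond leaving it out, after which OSM34, AT1G30700, JRG21 and AT1G05340 were still called, while AT1G74010 and AT2G31945 lost their calls. Each of these was called in 1 of the 6 fits that left out an array, the one without replicate 3 at 48 h.

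Replicate 1 was also highest and replicate 3 lowest at 48 h in BUB3.2, AT5G38910 (5.06, 4.77 and 4.49) and AT2G04050 (4.95, 4.29 and 4.27). AT1G04770, AT3G56200, AT3G19030 and AT2G29170 lacked that pattern. AT1G04770 had the smallest adjusted p of the named genes, at 6.70, 6.88 and 7.08 at 48 h and 5.85, 5.85 and 5.99 at 24 h, with 6.23, 6.54 and 6.33 on complete medium (log2 change 0.98 ± 0.12 (SE), limma adjusted p = 0.000575). AT3G56200 read 6.6, 6.64 and 6.73 at 48 h and 5.18, 5.54 and 5.81 at 24 h, a 2.21-fold rise (limma adjusted p = 0.0018). AT3G19030 read 7.08, 7.25 and 7.37 at 48 h and 6.35, 6.36 and 6.29 at 24 h, a 1.87-fold rise. The complete-medium arrays lay between the times in AT1G04770 and AT3G19030 (6.70 to 6.91) and overlapped the 24 h arrays in AT3G56200 (5.69 to 6.06). AT2G29170 read 5.15, 4.77 and 4.81 at 48 h and 3.73, 4.05 and 3.73 at 24 h, and rose 2.1-fold.

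CHX16, a member of the cation/H+ exchanger family, read 6.84, 6.74 and 6.87 at 48 h and 6.09, 5.94 and 5.92 at 24 h, a 1.78-fold rise (limma adjusted p = 0.0184). Its complete-medium arrays, 6.35, 7.11 and 6.86, reached both sides of the 48 h arrays, and the call was lost without any one of the 6 arrays and with all 36 in 1 fit. AT4G27300 read 8.28, 8.24 and 8.26 at 48 h and 7.63, 7.65 and 7.70 at 24 h, a 1.52-fold rise whose call was lost under the same alternatives (adjusted p up to 0.113). The other 10 named rises ran from 0.74 to 1.04 on the log2 scale and were AT2G41730, AT5G06730, AT1G33030, AT5G38910, AT2G04050, AT5G55420, AT4G27660, AT1G51790, AT5G08360 and AT1G18390. With 1 of the 6 arrays left out, AT1G33030 and AT1G51790 kept their calls in all 6 fits and AT5G08360 in 4. AT2G41730 and AT2G04050 were called in 2 of these fits, and AT5G38910 and AT4G27660 in 1. AT5G06730, AT5G55420 and AT1G18390 lost their calls in every fit.

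The 7 named falls also carry locus codes and lay between -0.58 and -0.80. AT2G05540 read 6.69, 6.29 and 6.59 at 48 h and 7.39, 7.24 and 7.36 at 24 h, against 6.80, 6.91 and 6.68 on complete medium. It fell by 0.80 ± 0.13 on the log2 scale (SE, limma adjusted p = 0.00375), and the complete-medium arrays lay at or just above the 48 h level. AT1G61740 read 7.30, 7.06 and 7.20 at 48 h and 7.88, 7.89 and 8.13 at 24 h, and fell by 0.78 ± 0.11 (SE, limma adjusted p = 0.00285). Its complete-medium arrays, 7.43, 7.36 and 7.54, lay between the times.

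AT5G62130 read 6.13, 6.19 and 6.28 at 48 h and 6.92, 6.85 and 7.10 at 24 h, against 5.75, 5.53 and 5.46 on complete medium, so that complete medium was lowest. AT1G67590 read 3.35, 3.21 and 3.42 at 48 h and 3.95, 4.08 and 4.06 at 24 h. AT3G19850 fell by 0.74, AT4G33490 by 0.65 and AT3G52900 by 0.58. With 1 of the 6 arrays left out, AT4G33490 and AT3G52900 lost their calls in every fit. AT5G62130 was called in 1 of these 6 fits, AT3G19850 in 2 and AT1G67590 in 3. AT2G05540 and AT1G61740 held in all 6, though AT2G05540 lost its call with all 36 arrays in 1 fit. Of the unnamed probe sets, 267035_at fell by 0.97, with 6.28, 6.05 and 6.23 at 48 h and 7.22, 7.13 and 7.11 at 24 h, and 263831_at fell by 0.92.

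**Figure D4:**
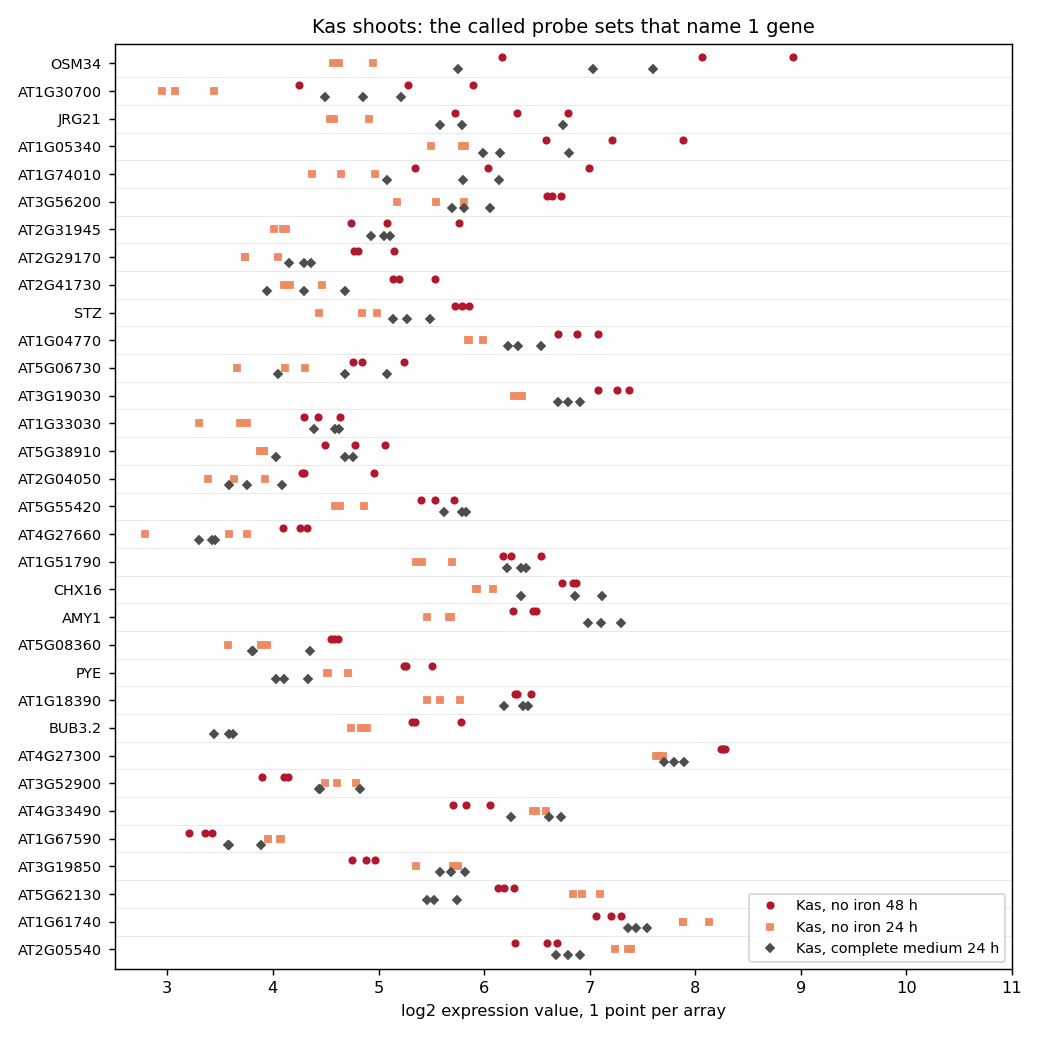
Log2 expression values (x axis) of the 33 called probe sets that name 1 gene (y axis, ordered by change), with circles for Kas shoots after 48 h without iron, squares for 24 h without iron and diamonds for 24 h on complete medium, 1 point per array. The complete-medium arrays lie below both iron-free times in BUB3.2, PYE and AT5G62130 and above both in AMY1.

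Other lists held no call. PYK10, a beta-glucosidase abundant in roots, came nearest, at 6.47, 6.08 and 5.42 at 48 h and 6.78, 6.72 and 6.87 at 24 h (change -0.80, limma adjusted p = 0.0586), while EXPA7, a root hair expansin, moved the other way by 0.67 (adjusted p = 0.101). Of the 4 root markers 0 were called and 2 had an unadjusted p below 0.05, which 10% of all probe sets had, and their part in the other results was not tested. The clock gene GI read 8.21 to 8.24 at 48 h and 8.22 to 8.28 at 24 h, and 0 of 3 clock probe sets were called or had an unadjusted p below 0.05. The cold and drought list had 0 of 4 calls and 2 unadjusted p below 0.05. Its dehydrin LTI30 read 5.93 to 6.09 at 48 h and 5.36 to 5.65 at 24 h (limma adjusted p = 0.398). The hormone and expansion list had 0 of 6 calls and 2 unadjusted p below 0.05. One was WES1, an auxin-conjugating enzyme, at 4.53, 4.02 and 3.85 at 48 h and 4.03, 3.36 and 3.27 at 24 h, against 4.69 to 4.70 on complete medium.

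No gene family gathered from the annotation held a limma call. Of 43 UDP-glycosyltransferases 3 had an unadjusted p below 0.05, as did 2 of 24 cytochrome P450s, 3 of 28 expansins and xyloglucan enzymes, 4 of 12 glutathione S-transferases, 1 of 7 WRKY factors and 1 of 6 tubulins. The share over all probe sets was 10%. The family medians lay between -0.08 and 0.17.

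**Figure D5:**
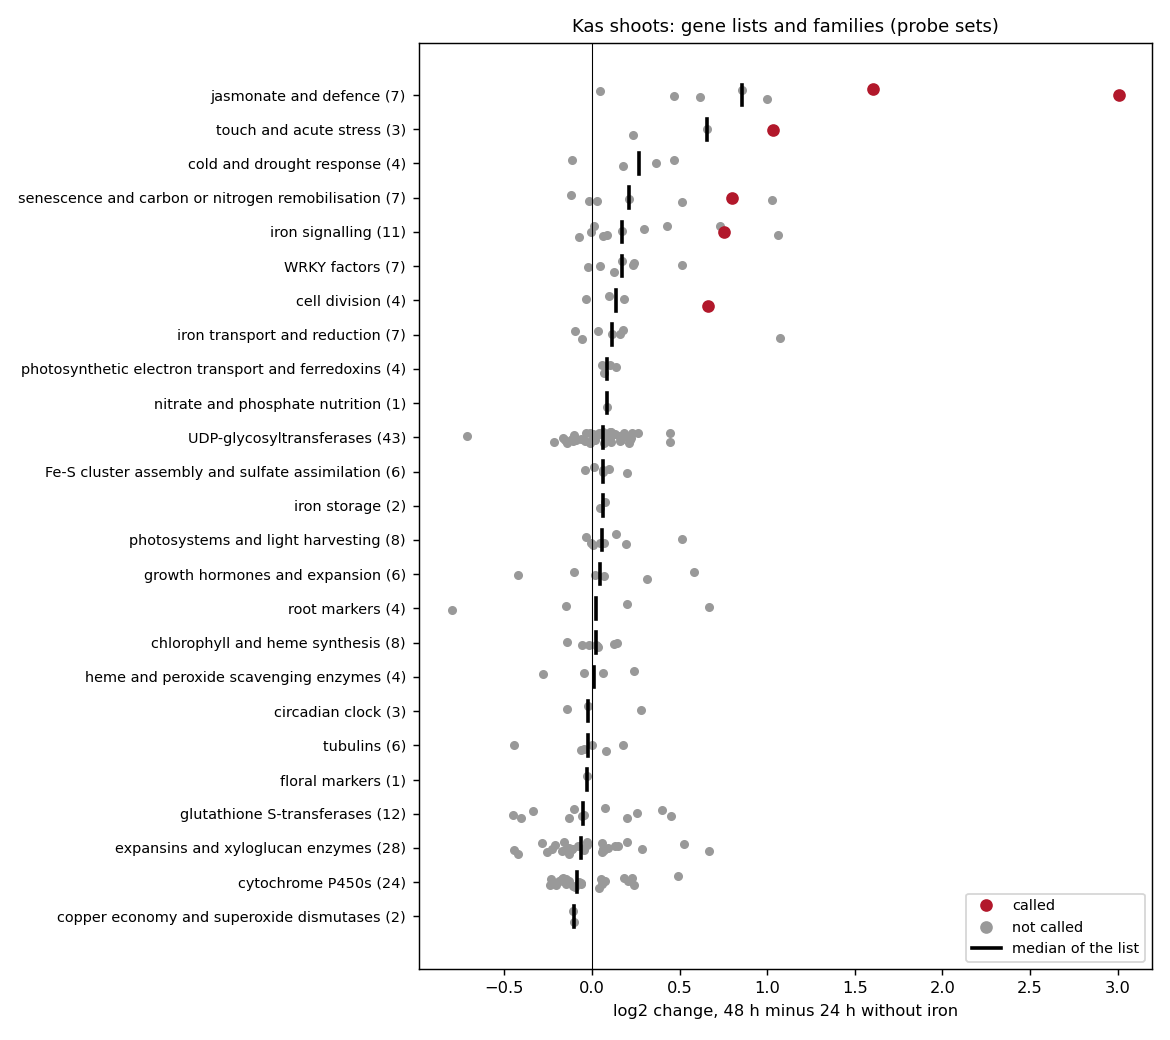
Log2 change from 24 h to 48 h without iron in Kas shoots (x axis) of every probe set of the gene lists and families (y axis, number of probe sets in brackets), with calls in red, the rest in grey and black bars at the list medians. The 6 called members are OSM34 and JRG21, STZ, AMY1, PYE and BUB3.2, and the jasmonate and defence list has the highest median, 0.86.

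The same interval in Tsu shoots gave 2433 calls (10.7% of probe sets), and the difference of the changes, Kas minus Tsu, was called at 1649 probe sets (7.25%). Those counts rest on the Tsu arrays at 24 h, which stood between the ecotypes on the scale above. Of the 1649, 84.9% also differed between the ecotypes on complete medium, as did 33.2% of all probe sets. Both tests used the same spread estimate for each probe set, so probe sets of small spread pass both more easily. Its part in the shares here, and in the counts over probe sets not differing between ecotypes, was not tested. Among the 15197 probe sets not called as different on complete medium, 36 differences were called when these alone were adjusted. Of the 86 Kas calls, 72 had a called difference and 27 were called in Tsu, 21 of them in the opposite direction and 6 in the same one. The median change of the 69 rises was 0.874 in Kas and -0.195 in Tsu. The 86 were picked by their Kas change, which is also a term of the difference. The many called differences and the unequal medians thus follow in part from that choice. Among the 86, 62 (72.1%) differed between the ecotypes on complete medium, and of the 50 rises among these, 41 were higher in Kas than in Tsu there. Called rises were 0.303% of all probe sets tested and 6 of the 122 ecotype-separating probe sets, OSM34, JRG21, AMY1 and AT5G55420 included. On complete medium these named genes were higher in Kas than in Tsu by 3.94, 3.43, 3.25 and 3.05 on the log2 scale. Their rises are thus not separate from the ecotype scale. The median over the 122 ecotype-separating probe sets moved towards the Kas side by 0.17 on the log2 scale from 24 h to 48 h in Kas shoots. Its part in the rises was not tested. With only the 15197 probe sets tested, 16 Kas calls were made.

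PYE read 5.63, 5.78 and 5.89 in Tsu at 48 h and 5.53, 6.01 and 5.50 at 24 h, so its Tsu change was 0.08, and the Kas change was larger by 0.67 ± 0.20 (SE, limma adjusted p = 0.0482). AT1G47400 read 7.81, 7.71 and 7.83 in Tsu at 48 h and 7.71, 8.69 and 8.05 at 24 h. At 48 h the Kas arrays (7.57 to 7.88) overlapped these Tsu arrays, and at 24 h the Kas arrays (6.56 to 6.78) lay below them. The difference of the changes was 1.43 ± 0.43 (SE, limma adjusted p = 0.048). BUB3.2 moved oppositely, with 4.05, 3.83 and 3.79 in Tsu at 48 h and 4.40, 4.50 and 4.60 at 24 h, a difference of 1.27 (limma adjusted p = 9.95e-05).

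AT2G29170, AT1G61740 and AT2G05540 were the named genes called in both ecotypes in the same direction. Their Tsu changes were 0.97, -0.57 and -0.75, beside 1.07, -0.78 and -0.80 in Kas. For them the difference between ecotypes did not pass, at 0.10, -0.21 and -0.05. The difference for OSM34 was 4.34 ± 0.65 (SE, limma adjusted p = 0.000213), with 2.72, 2.97 and 2.71 in Tsu shoots at 48 h and 4.33, 3.90 and 4.17 at 24 h.

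In Kas roots the same interval gave 63 calls (0.277% of probe sets), and the shoot change differed from the root change at 157 probe sets (0.69%). Of the 86 shoot calls, 4 were called in roots and 21 had a called difference between the tissues. AT2G04050 changed by 0.86 in shoots and by 3.57 in roots (limma adjusted p = 0.00358 in roots), and the difference of -2.72 passed (adjusted p = 0.0131). AT2G41730 changed by 1.04 in shoots and by 3.26 in roots (limma adjusted p = 0.0143 in roots), where the difference missed the test (adjusted p = 0.083). The tissue difference came from the fit of all 36 arrays, in which neither shoot change was called (adjusted p = 0.626 for AT2G04050 and 0.546 for AT2G41730). Without 1 array, each shoot call held in 2 of 6 fits. The shoot rises of OSM34 and AT3G56200 had no counterpart past the test in roots, with root changes of -0.46 and -0.39, and their tissue differences of 3.46 and 1.54 passed (adjusted p = 0.0018 and 0.000149). PYE changed by 0.56 in roots, which did not pass (adjusted p = 0.244), and its tissue difference was not called (adjusted p = 0.819).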

How the data were processed

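The 36 arrays are 1-colour Affymetrix arrays hybridised with biotin-labelled total RNA, per the labels. The authors deposited log2 expression values for each probe set, a scale read from the values. How they corrected background and normalized, and with which software, is not given in the sources used here. Arrays give no read depth, and 3 arrays per group limit the precision. The extraction protocol names whole rosettes while titles name roots and shoots, and titles set the groups.

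Of 22810 probe sets, 64 control probe sets were left out and 22746 tested, with no filter. The array's annotation table named 1 gene for 13513 probe sets and several for 503, and 8730 are unnamed here. Names were updated to RefSeq names of assembly TAIR10.1 for 13436 of them, and 77 were not matched. No sequence was used.

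The test was limma 3.58.1 in R 4.3.3 (lmFit, eBayes) over the 18 shoot arrays in 6 groups, so that these share 1 estimate of the spread (12 residual degrees of freedom), two-sided, with Benjamini-Hochberg adjustment over all 22746 probe sets. The Kas minus Tsu contrast is an interaction term of the same fit, and the tissue contrast came from a fit of all 36 arrays. The procedure was tested on simulated data with independent noise per probe set. Those data held no shift of a whole array and no ecotype difference, so that test does not bear on either. The deviations of same-numbered replicates from their group means had correlations of 0.0671, 0.0298 and 0.0547, too weak to take the numbers as pairs, so no block was used.

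Named genes were the 14 largest rises and 14 largest falls among called probe sets naming 1 gene with no overlap between times, the 6 with the smallest adjusted p in each direction, and members of the lists. The 19 lists held 448 loci, of which 90 were on a named probe set. The comparison, lists and tests were chosen with earlier results of these data known, and the match words of the 6 gene families were corrected after values were seen. Alternatives were the arrays in the fit, filters on dim probe sets, quantile normalization, median centring, trend and robust moderation, a replicate block, probe sets not differing between ecotypes, and leaving out each array. Leaving out Tsu arrays was added after seeing the data.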

Additional observations from a re-analysis of the deposited data

Results flagged for a closer look

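The Kas change from 24 h to 48 h without iron differed from the Tsu change, by limma's interaction term, at 1649 probe sets. The Tsu arrays at 24 h stood between the ecotypes, as described above, so these differences also carry whatever set those arrays apart. Its part was not tested. Differences below are Kas minus Tsu changes on the log2 scale. Most genes below were picked by their Kas change, which is a term of the difference, so a large difference follows in part from that choice.

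The called difference was positive at 885 probe sets and negative at 764. The largest of a named gene was 5.26 for AT4G29200, which changed by 0.15 in Kas and by -5.11 in Tsu. Its mean was 7.90 at 24 h and 2.79 at 48 h in Tsu, beside 8.12 at 24 h and 8.26 at 48 h in Kas. The most negative was -2.18 for scpl42, with changes of -0.65 in Kas and 1.54 in Tsu. Among defence and stress genes the difference was 4.34 for OSM34, 2.73 for JRG21, 1.58 for PDF1.2 and 1.48 for STZ. Among iron genes it was 0.67 for PYE, 1.43 for AT1G47400, 1.45 for AT5G05250 and 0.86 for AT1G18910. The antenna gene LHCB4.3 differed by 1.02, the amylase AMY1 by 2.05, the exchanger CHX16 by 1.51 and BUB3.2 by 1.27.

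Among loci without a symbol, the difference was 2.93 for AT5G55420, 2.60 for AT1G30700, 2.14 for AT1G74010, 1.67 for AT4G27300, 1.57 for AT5G38910 and 1.54 for AT2G31945. It was 1.41 for AT5G06730, 1.3 for AT1G18390, 1.25 for AT3G56200, 1.23 for AT2G41730, 1.21 for AT1G05340, 1.19 for AT1G51790 and 1.17 for AT1G04770. It was 0.91 for AT4G27660, 0.85 for AT1G33030, 0.83 for AT5G08360, 0.81 for AT2G04050 and 0.80 for AT3G19030. The Kas change was the more negative one for AT1G67590 (-1.42), AT5G62130 (-1.13), AT4G33490 (-1.06), AT3G19850 (-1.02) and AT3G52900 (-0.81).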

How the results depend on the processing

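The 86 Kas calls became 47 with all 36 arrays in 1 fit, 144 with only the 6 arrays compared, 162 with trend and robust moderation and 16 over the probe sets not differing between ecotypes, and ran from 31 to 102 when 1 of the 6 arrays was left out. The other alternatives gave 66 to 120. Calls were 80.2% rises, against 61.7% over probe sets above the median level. The 1649 Kas minus Tsu differences became 955 with all 36 arrays and 36 over probe sets not differing between ecotypes, and the 2433 Tsu calls became 115 there. Leaving out 1 array gave 1214 to 1951 differences and 1673 to 2852 Tsu calls. With the replicate number as a block there were 68 Kas calls, 1552 differences and 2312 Tsu calls. The numbers share no stated origin. Each array's deviations correlated best, though weakly, with those of its own number, a hint from the data and not from the design. Of the 33 named calls, 13 held in all 6 fits with an array left out and 11 under every alternative run for them, OSM34, JRG21, AT1G30700, AT1G05340 and AT1G04770 among them. No named change reversed. The cause of these shifts was not tested. Dim probe sets, of which no detection call was used, limit small changes.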
